A study of Homo sapiens with 8 samples.

Results

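The ERK feedback and output genes described here are 10 transcripts that the ERK kinase pathway is known to switch on: DUSP4, DUSP5, DUSP6, SPRY2, SPRY4, SPRED1, SPRED2, ETV4, ETV5 and PHLDA1. They were chosen by gene name as well-known readouts of the pathway, with earlier results of these data known. Each name occurred once among the 48162 genes listed for every library. All 10 had a mean of at least 1 FPKM (reads per kilobase of gene, scaled to library size) over the 8 libraries, so all 10 were among the 14311 genes tested.

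The libraries came from KYSE70 and KYSE450, established lines of esophageal squamous cell carcinoma, grown at passages 5 to 10 and sequenced from total RNA. The long noncoding RNA NMR was lowered with a short hairpin RNA delivered by lentivirus packaged in HEK 293T cells, or raised with the plasmid PCDNA3.1 transfected with Lipofectamine. The 4 groups were NMR knockdown with its control (knockdown control), and NMR overexpression with its own control (overexpression control). The labels call the libraries of the last group only control, and they were taken as overexpression controls from the description of the study design. Each group held 1 library of each line, and the sources used here do not give the vectors of the controls, the number of hairpins, or whether infected cells were selected. The knockdown and its control are called the lentiviral arm below, and the overexpression and its control the plasmid arm, after the way the NMR construct was delivered. Between the arms, delivery and every other difference in handling cannot be told apart. NMR itself was not analysed here, since no listed gene carries that name.

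Library totals, recovered from the size of 1 read in the deposited values, ran from 26448153 to 38003344 reads. Mitochondrial genes made up 8.63% of the summed FPKM in the KYSE70 knockdown library and 3.84% to 5.75% in the other 7 libraries. The label of squamous cells was checked against 7 squamous markers (TP63, KRT5, KRT14, KRT6A, KRT17, SOX2 and DSG3), all with a mean of at least 1 FPKM. Their summed level was 9270 FPKM in KYSE70 knockdown cells against 7510 FPKM in knockdown control cells, and 13300 against 9650 FPKM in KYSE450. In the plasmid arm it was 15300 FPKM in KYSE70 overexpression cells against 12200 FPKM in overexpression control cells, and 25700 against 18500 FPKM in KYSE450. Most of this sum is KRT5 and KRT6A, and it was lower in the lentiviral arm in both lines. KRT17 reached a mean of 1 FPKM through KYSE450 only, with 190 to 264 FPKM there against 0.341 to 0.873 FPKM in KYSE70. KRT14 had 371 to 1210 FPKM in KYSE450 and 3.2 to 38.3 FPKM in KYSE70. The markers did not share one direction: of the 7, 3 were higher and 3 lower in both lines in knockdown control than in overexpression control cells (fitted median 0.13). TP63, the lineage factor, had 346 FPKM in KYSE70 knockdown cells against 218 FPKM in knockdown control cells, and 189 FPKM in overexpression cells against 140 FPKM in overexpression control cells. Its KYSE450 levels were 439 FPKM in knockdown cells against 654 FPKM in knockdown control cells, and 307 FPKM in overexpression cells against 233 FPKM in overexpression control cells. TP63 was thus higher in the lentiviral arm in both lines. The part of these levels in the values of the ERK genes was not tested. The 5 immune markers summed to 0.185 to 0.858 FPKM. The 6 fibroblast markers summed to 27.1 to 52.3 FPKM, most of it COL1A1 (20.6 to 37.0 FPKM), with COL1A2 at most 0.262 FPKM. COL3A1 also had a mean of at least 1 FPKM. Its fitted log2 difference was 1.57 with knockdown, -0.42 with overexpression and 1.60 in KYSE70 against KYSE450. In knockdown control against overexpression control cells it was -1.325. Of 3 endothelial markers, 2 were listed, and they summed to 0.733 to 4.29 FPKM.

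ERK is the last kinase of the RAS, RAF and MEK cascade that carries growth factor signals to the nucleus. Active ERK turns on genes whose products switch it off again, so their transcripts are widely read as a delayed measure of pathway activity. DUSP4, DUSP5 and DUSP6 are phosphatases that remove the activating phosphates from ERK, SPRY2 and SPRY4 (Sprouty) and SPRED1 and SPRED2 are inhibitors acting upstream of or at RAF, ETV4 and ETV5 are ETS transcription factors that carry the output of the pathway, and PHLDA1 is an output gene coding for a protein with a pleckstrin homology-like domain.

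ETS factors bind DNA around the bases GGAA, so the promoter windows of 3 genes are shown: those with the largest fitted differences between the arms among the members with an entry in the table used. Each window runs from 250 bases before to 50 bases after the gene's start, was taken from RefSeq (GRCh38.p14) on the strand of the gene, and has GGAA or its reverse complement TTCC in capitals. DUSP6 lies at chr12:89352452-89352751, SPRY4 at chr5:142324198-142324497 and PHLDA1 at chr12:76031727-76032026, all on the minus strand. The start is the one that RefSeq gives. GENCODE release 29 puts the outermost start of DUSP6 at 89353271, that of PHLDA1 at 76033932 and that of SPRY4 at 142326455. All 3 windows therefore lie inside the longer GENCODE genes.
DUSP6: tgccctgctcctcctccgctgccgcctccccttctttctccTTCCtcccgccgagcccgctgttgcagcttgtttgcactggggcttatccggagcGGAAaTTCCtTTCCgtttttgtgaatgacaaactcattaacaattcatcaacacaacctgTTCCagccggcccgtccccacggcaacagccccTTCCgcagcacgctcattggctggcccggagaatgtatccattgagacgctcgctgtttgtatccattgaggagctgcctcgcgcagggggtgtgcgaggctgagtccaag
SPRY4: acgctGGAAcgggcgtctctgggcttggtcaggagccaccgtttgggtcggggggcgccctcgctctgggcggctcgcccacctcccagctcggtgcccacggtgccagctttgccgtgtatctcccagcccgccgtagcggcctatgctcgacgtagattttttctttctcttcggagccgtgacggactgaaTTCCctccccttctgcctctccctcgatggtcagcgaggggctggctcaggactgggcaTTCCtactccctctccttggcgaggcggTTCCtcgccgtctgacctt
PHLDA1: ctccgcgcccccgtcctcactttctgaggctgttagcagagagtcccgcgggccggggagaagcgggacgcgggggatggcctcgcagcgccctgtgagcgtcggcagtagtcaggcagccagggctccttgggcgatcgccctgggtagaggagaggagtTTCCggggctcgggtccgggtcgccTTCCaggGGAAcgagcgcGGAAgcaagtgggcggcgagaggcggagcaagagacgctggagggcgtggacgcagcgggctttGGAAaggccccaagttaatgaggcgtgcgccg
On both strands together the bases occurred 6 times in the DUSP6 window, 4 times in that of SPRY4 and 5 times in that of PHLDA1. Of 35116 promoter windows of the same length, 95.5% held at least 1 copy, the median was 3 copies, and 46.0% held 4 or more. The longer motif CCGGAA, which contains GGAA, was present in 1 copy in the PHLDA1 window, in 1 copy in the first of 3 windows listed for SPRY2, and in none of those of DUSP6, SPRY4, SPRED1 or SPRED2. It occurred in 17.2% of all windows. The AP-1 motif TGANTCA, found in 7.71% of all windows, was present only in the second of 2 windows listed for SPRED2, and these letter matches say nothing of what binds there. In all, 6 of the 10 members had a window that was searched.

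By role, the phosphatases come first. DUSP4, a nuclear phosphatase, had 2.86 FPKM in KYSE70 knockdown cells against 3.52 FPKM in knockdown control cells, and 1.36 FPKM in KYSE70 overexpression cells against 1.26 FPKM in overexpression control cells. In KYSE450 it had 0.451 FPKM in knockdown cells against 2.17 FPKM in knockdown control cells, and 0.249 FPKM in overexpression cells against 0.2 FPKM in overexpression control cells. The KYSE450 knockdown control was therefore high for that line, while the other 3 KYSE450 libraries were all under every KYSE70 library. DUSP5, also nuclear and specific for ERK, had 29.3 FPKM in KYSE70 knockdown cells against 30.3 FPKM in knockdown control cells, and 9.61 FPKM in overexpression cells against 10.4 FPKM in overexpression control cells. In KYSE450 the same gene had 4.35 FPKM in knockdown cells against 5.0 FPKM in knockdown control cells, and 1.42 FPKM in overexpression cells against 1.18 FPKM in overexpression control cells. In these values DUSP5 differed by line and by arm, and within each line and arm the treated and control libraries lay close together.

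DUSP6, the cytoplasmic ERK phosphatase, behaved otherwise. In KYSE70 it had 3.82 FPKM in knockdown cells against 21.9 FPKM in knockdown control cells, and 2.09 FPKM in overexpression cells against 2.18 FPKM in overexpression control cells. In KYSE450 it had 11.6 FPKM in knockdown cells against 13.9 FPKM in knockdown control cells, and 2.92 FPKM in overexpression cells against 3.28 FPKM in overexpression control cells. All 4 lentiviral libraries lay above all 4 plasmid libraries, and the KYSE70 knockdown library was the lowest of the lentiviral ones.

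Of the Sprouty inhibitors, SPRY2 had 4.54 FPKM in KYSE70 knockdown cells against 11.4 FPKM in knockdown control cells, and 4.48 FPKM in overexpression cells against 3.42 FPKM in overexpression control cells. KYSE450 cells held 3.4 FPKM of SPRY2 with knockdown against 3.11 FPKM in knockdown control cells, and 2.04 FPKM with overexpression against 2.26 FPKM in overexpression control cells. A single library, the KYSE70 knockdown control, stood well above the other 7. SPRY4 had 7.84 FPKM in KYSE70 knockdown cells against 19.8 FPKM in knockdown control cells, and 2.91 FPKM in overexpression cells against 2.69 FPKM in overexpression control cells. In KYSE450, SPRY4 had 1.16 FPKM in knockdown cells against 2.17 FPKM in knockdown control cells, and 0.342 FPKM in overexpression cells against 0.451 FPKM in overexpression control cells. These last 2 values rest on 18 and 22 reads, the fewest behind any value of the 10 genes. In both lines the knockdown control was highest, the knockdown next, and the plasmid libraries lowest.

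The SPRED inhibitors, which recruit the RAS-inactivating protein neurofibromin, varied least across the libraries. SPRED1 had 11.2 FPKM in KYSE70 knockdown cells against 14.0 FPKM in knockdown control cells, and 10.0 FPKM in overexpression cells against 8.44 FPKM in overexpression control cells. For SPRED1 in KYSE450 the values were 9.29 FPKM with knockdown against 9.61 FPKM in knockdown control cells, and 5.98 FPKM with overexpression against 5.87 FPKM in overexpression control cells. The lentiviral libraries were again the higher pair in each line, by less than 2-fold. SPRED2 had 41.2 FPKM in KYSE70 knockdown cells against 51.4 FPKM in knockdown control cells, and 44.9 FPKM in overexpression cells against 36.8 FPKM in overexpression control cells. In KYSE450 it had 44.5 FPKM in knockdown cells against 65.0 FPKM in knockdown control cells, and 33.3 FPKM in overexpression cells against 43.8 FPKM in overexpression control cells. Its highest value was only 1.95-fold above its lowest, the smallest range of the 10 genes, and in KYSE70 the arms overlapped.

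The ETS factors spread far more widely. ETV4 had 34.6 FPKM in KYSE70 knockdown cells against 86.3 FPKM in knockdown control cells, and 47.7 FPKM in overexpression cells against 51.4 FPKM in overexpression control cells. In KYSE450 ETV4 had 23.1 FPKM in knockdown cells against 25.3 FPKM in knockdown control cells, and 8.72 FPKM in overexpression cells against 11.8 FPKM in overexpression control cells. The KYSE70 knockdown library was thus the lowest of its line, below both plasmid libraries. ETV5 had 215 FPKM in KYSE70 knockdown cells against 314 FPKM in knockdown control cells, and 94.8 FPKM in overexpression cells against 96.6 FPKM in overexpression control cells. In KYSE450 ETV5 had 11.8 FPKM in knockdown cells against 35.0 FPKM in knockdown control cells, and 4.65 FPKM in overexpression cells against 5.14 FPKM in overexpression control cells. Its highest library was 67.4-fold above its lowest, the widest range of the 10, and every KYSE70 library exceeded every KYSE450 library.

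PHLDA1, the remaining output gene, had 88.8 FPKM in KYSE70 knockdown cells against 41.1 FPKM in knockdown control cells, and 15.6 FPKM in overexpression cells against 14.4 FPKM in overexpression control cells. In KYSE450 it had 30.9 FPKM in knockdown cells against 80.2 FPKM in knockdown control cells, and 6.46 FPKM in overexpression cells against 4.99 FPKM in overexpression control cells. All 4 lentiviral libraries were far above all 4 plasmid libraries, but within the lentiviral arm the knockdown was the higher library in KYSE70 and the lower one in KYSE450.

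**Figure D1:**
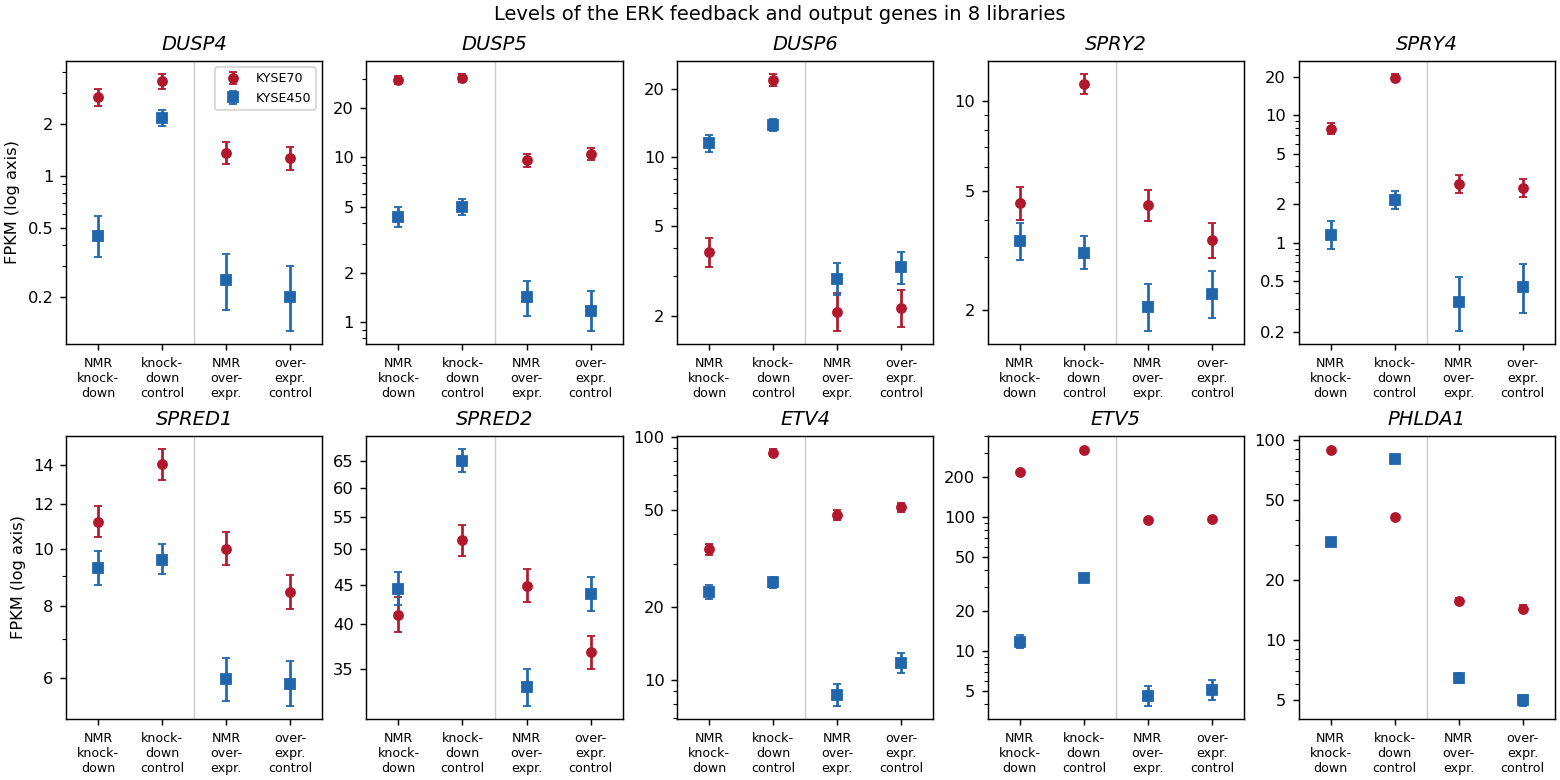
FPKM (log axis) of the 10 genes in the 8 libraries, 1 panel a gene; circles are KYSE70, squares are KYSE450, and bars are exact 95% Poisson intervals of the reads, which cover counting error only. The lentiviral libraries left of the grey line sit above the plasmid libraries of the same line for 8 genes in both lines, ETV4 and SPRED2 being the exceptions in KYSE70.

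By mean over the 8 libraries, ETV5 was highest at 97.0 FPKM, followed by SPRED2 at 45.1, ETV4 at 36.1, PHLDA1 at 35.3, DUSP5 at 11.4, SPRED1 at 9.3, DUSP6 at 7.71, SPRY4 at 4.67, SPRY2 at 4.33 and DUSP4 at 1.51 FPKM. Neighbours in this order overlapped in their library ranges, for example ETV4 (8.72 to 86.3 FPKM) and PHLDA1 (4.99 to 88.8 FPKM). The gene length that the deposited values imply also differed from the full exon length in GENCODE release 29, being 955 against 5802 bases for ETV5 and 1295 against 5154 bases for SPRED2. Levels of different genes are therefore only loosely comparable, while the same gene can be compared between libraries. ETV4 overlaps DHX8 on the opposite strand (27.8 to 48.5 FPKM), and without a stated strand setting reads of the shared stretch cannot be assigned. SPRY4-AS1 and ETV5-AS1, antisense to their namesakes, reached at most 1.33 and 1.42 FPKM.

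The lines were compared over all 4 groups with limma on log2(FPKM + 1), with group as a covariate and Benjamini-Hochberg adjustment over the 14311 genes. Of the 10 genes, 7 were higher in KYSE70 at an adjusted p under 0.05 and 0 were lower. Across all genes 54.0% were called, 26.6% higher and 27.4% lower in KYSE70, so a call by itself is common here, while the direction was shared by all 7. ETV5 was higher in KYSE70 by 3.82 on the log2 scale (SE 0.19, limma adjusted p = 1.05e-05). DUSP5 was higher by 2.35 (SE 0.14, limma adjusted p = 2.62e-05) and SPRY4 by 1.91 (SE 0.25, limma adjusted p = 0.000743). ETV4 was higher by 1.66 (limma adjusted p = 0.0023), DUSP4 by 0.94 (limma adjusted p = 0.00503), SPRY2 by 0.80 (limma adjusted p = 0.0239) and SPRED1 by 0.47 (limma adjusted p = 0.0293). SPRY2 and SPRED1 no longer passed under some alternatives, SPRY2 with an adjusted p of 0.0684 without the expression filter and SPRED1 with 0.0739 after correction for GC content and length (both limma). Leaving out either overexpression or either knockdown control library also ended the call of both, with limma adjusted p-values of 0.0533 to 0.0664 for SPRY2 and 0.0762 to 0.152 for SPRED1, and leaving out either overexpression control library did so for SPRED1 (0.112).

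For 5 genes, DUSP5, SPRY2, SPRY4, ETV4 and ETV5, the 4 KYSE70 libraries all lay above the 4 KYSE450 libraries, as they did for 24.1% of all genes; for 0 of the 10 they all lay below (24.5%). DUSP6 (-0.38, limma adjusted p = 0.315), SPRED2 (-0.07, limma adjusted p = 0.738) and PHLDA1 (0.77, limma adjusted p = 0.14) did not pass. PHLDA1 passed when either knockdown control library was left out (1.34, limma adjusted p = 0.00213 and 0.00226). Its KYSE70 over KYSE450 ratio was similar in 3 groups, at 2.88 in knockdown, 2.42 in overexpression and 2.88 in overexpression control cells, but it was 0.512 in knockdown control cells. DUSP4 showed the same split, with KYSE70 over KYSE450 ratios of 6.34 in knockdown, 5.47 in overexpression and 6.33 in overexpression control cells against 1.62 in knockdown control cells. Likewise for ETV5 the ratio was 18.2 in knockdown, 20.4 in overexpression and 18.8 in overexpression control cells against 8.97 in knockdown control cells. For DUSP6 it was 0.331 in knockdown, 0.716 in overexpression and 0.664 in overexpression control cells against 1.58 in knockdown control cells. The knockdown control thus had the lowest line ratio of the 4 groups for PHLDA1, DUSP4 and ETV5, and the highest for DUSP6 and SPRY2 (3.65). It was also lowest for DUSP5 (6.06) and SPRED2 (0.791) and highest for SPRY4 (9.13). For those the next group was close, at 6.72 in knockdown, 0.841 in overexpression control and 8.5 in overexpression cells. It was neither for SPRED1 (1.46) and ETV4 (3.41). How often this group is the lowest or highest over all genes was not counted.

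**Figure D2:**
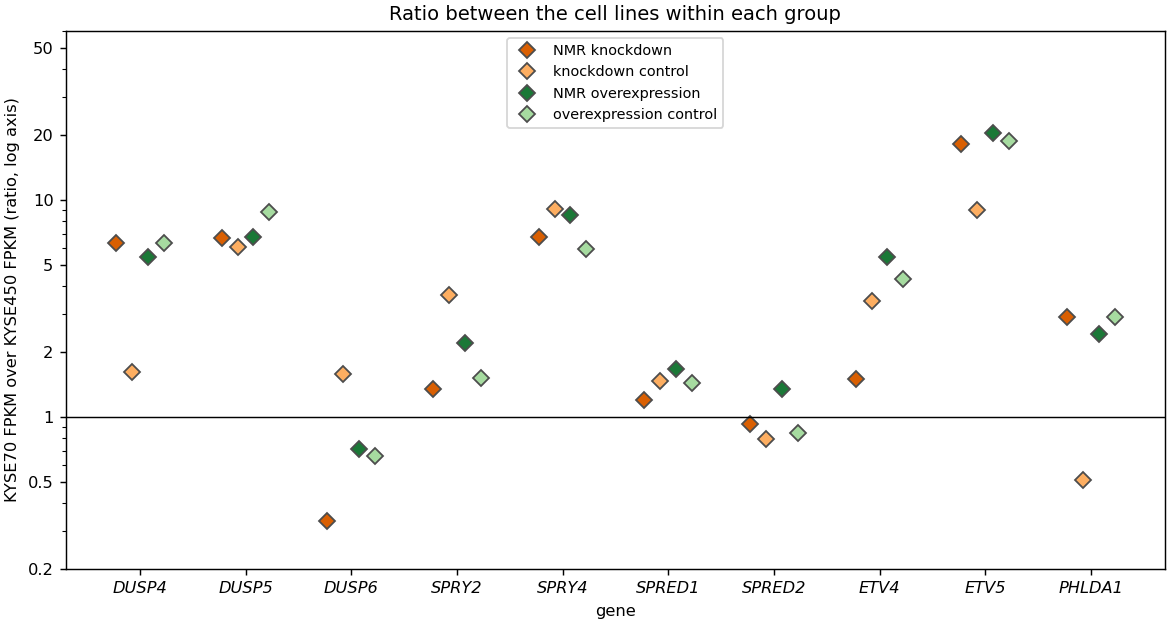
KYSE70 over KYSE450 ratio of FPKM (log axis) for each of the 10 genes in each group. ETV5 lies between 8.97 and 20.4 in all 4 groups, whereas DUSP6 and PHLDA1 cross 1 between the knockdown control and the other groups.

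Whether the line difference itself depended on the arm was tested as an interaction in limma. Of the 10 genes 0 passed, against 6.37% of all genes (912), of which 692 had a larger KYSE70 minus KYSE450 difference in the lentiviral arm and 220 a smaller one. After scaling by the median ratio of the libraries, the split over all genes was 471 to 509. At an unadjusted p under 0.05 the count was 2 of 10 (27.3% of all genes), SPRY4 at 0.93 (limma adjusted p = 0.106) and ETV4 at -1.03 (limma adjusted p = 0.137). After correction for GC content and length, ETV4 reached -1.16 (limma adjusted p = 0.0498). That test averages the treated and control libraries of an arm, and its value moved with 1 library for several genes. Without either knockdown library the interaction value was 1.01 for DUSP6, 0.94 for SPRY2, 1.27 for SPRY4, -0.91 for ETV5 and -2.21 for PHLDA1. Without either knockdown control library it was -0.995 for DUSP6 and -1.62 for ETV4. DUSP6 thus took opposite signs. In these fits the spread comes from the overexpression pairs alone, so no call is read from them.

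The arms were compared first through their controls. Knockdown control cells had more of all 10 genes than overexpression control cells in both lines, a direction shared by 37.1% of all genes. DUSP6 was 10.1-fold higher in KYSE70 (95% counting interval 8.31 to 12.3) and 4.24-fold in KYSE450 (3.57 to 5.07). PHLDA1 was 2.86-fold higher in KYSE70 (2.74 to 2.98) and 16.1-fold in KYSE450 (15.1 to 17.2). SPRY4 was 7.36-fold higher in KYSE70 (6.2 to 8.8) and 4.8-fold in KYSE450 (3.05 to 7.89). These 3 genes belong to different families, and the larger fold was in KYSE70 for DUSP6 and SPRY4 but in KYSE450 for PHLDA1.

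ETV5 was 3.24-fold higher in KYSE70 knockdown control cells than in overexpression control cells and 6.8-fold in KYSE450, DUSP5 2.9-fold and 4.24-fold, and DUSP4 2.79-fold and 10.9-fold. ETV4 was 1.68-fold and 2.14-fold higher, SPRY2 3.32-fold and 1.37-fold, SPRED1 1.66-fold and 1.64-fold, and SPRED2 1.4-fold and 1.48-fold. Differences of at least 1 on the log2(FPKM + 1) scale were seen for 6 of the 10 genes in KYSE70 (5.58% of all genes), for 7 in KYSE450 (4.23%) and for 5 in both lines (1.25%), namely DUSP5, DUSP6, SPRY4, ETV5 and PHLDA1. The median of the 10 genes was 1.45 in KYSE70 and 1.26 in KYSE450, against 0.12 and 0.00 over all genes.

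With 2 control libraries an arm, limma with cell line as covariate called 0 of the 10 genes and 0.0% of all genes at an adjusted p under 0.05. At an unadjusted p under 0.05 it listed 9 of the 10, all but ETV4, and 2078 of all genes (14.5%). The voom fit of recovered reads called 0 as well. The fitted differences were 2.61 for PHLDA1 (SE 0.56, limma adjusted p = 0.157), 2.33 for DUSP6 (SE 0.43, limma adjusted p = 0.126), 2.12 for ETV5 (SE 0.26, limma adjusted p = 0.0787), 1.81 for SPRY4 (SE 0.35, limma adjusted p = 0.134), 1.46 for DUSP5 (SE 0.20, limma adjusted p = 0.0964) and 1.20 for DUSP4 (SE 0.26, limma adjusted p = 0.165). ETV5 ranked 14 of all genes by p, and its adjusted p was 0.0476 or 0.0425 when 1 or the other overexpression library was left out.

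Taking both libraries of each arm, a contrast added after the data were seen, limma called 6 of the 10 genes higher in the lentiviral arm, where 7.22% of all genes were called higher and 2.96% lower. That fit holds a term each for line, arm and treated or control (4 residual degrees of freedom) and no block for the pairs, so the treated and control library of a line and arm count as separate libraries of the arm. The 6 calls rest on this model, while the fit to the controls called 0. They were DUSP5 at 1.39 (limma adjusted p = 0.00471), ETV5 at 1.65 (limma adjusted p = 0.0141), PHLDA1 at 2.43 (limma adjusted p = 0.015), DUSP6 at 1.74 (limma adjusted p = 0.0247), SPRY4 at 1.37 (limma adjusted p = 0.0248) and DUSP4 at 0.83 (limma adjusted p = 0.0464). Both lentiviral libraries lay above both plasmid libraries for 8 of the 10 genes in KYSE70 (42.7% of all genes), for 10 in KYSE450 (35.2%) and for 8 in both lines (20.0%). In bulk RNA, more cells with a transcript and more of the transcript per cell cannot be told apart.

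NMR knockdown was set against the knockdown control in each line. This comparison and the one between the controls share the knockdown control libraries, so a high value there enters them with opposite signs, and the values are given side by side only. In both lines, 8 of the 10 genes were lower with knockdown, a direction shared by 25.9% of all genes. After correction for GC content and length the count was 7, since DUSP5 in KYSE70 then stood at 0.13, against -0.05 before. The other 2, SPRY2 and PHLDA1, had opposite signs in the lines, as did 46.4% of all genes. In KYSE70 the knockdown over control fold was 0.174 for DUSP6 (95% counting interval 0.147 to 0.205), 0.397 for SPRY4 (0.351 to 0.448), 0.4 for SPRY2 (0.343 to 0.465) and 0.401 for ETV4 (0.375 to 0.428). In KYSE450 those genes had folds of 0.831, 0.536, 1.09 and 0.912.

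The genes that stood lowest in KYSE450 were others: DUSP4 at a fold of 0.208 (95% counting interval 0.154 to 0.276), ETV5 at 0.337 (0.297 to 0.381) and PHLDA1 at 0.385 (0.374 to 0.396). In KYSE70 these 3 had folds of 0.811, 0.685 and 2.16. A difference of at least 1 on the log2(FPKM + 1) scale downward was seen for 4 genes in KYSE70 (DUSP6, SPRY2, SPRY4 and ETV4, against 3.74% of all genes) and for 3 in KYSE450 (DUSP4, ETV5 and PHLDA1, against 0.37%), with no gene in both. PHLDA1 was the only member at least 1 higher, in KYSE70 (1.68% of all genes). DUSP5 stayed near its control, at 0.965-fold in KYSE70 and 0.87-fold in KYSE450. The median of the 10 genes was -0.43 in KYSE70 and -0.39 in KYSE450, against -0.00 and 0.01 over all genes.

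**Figure D3:**
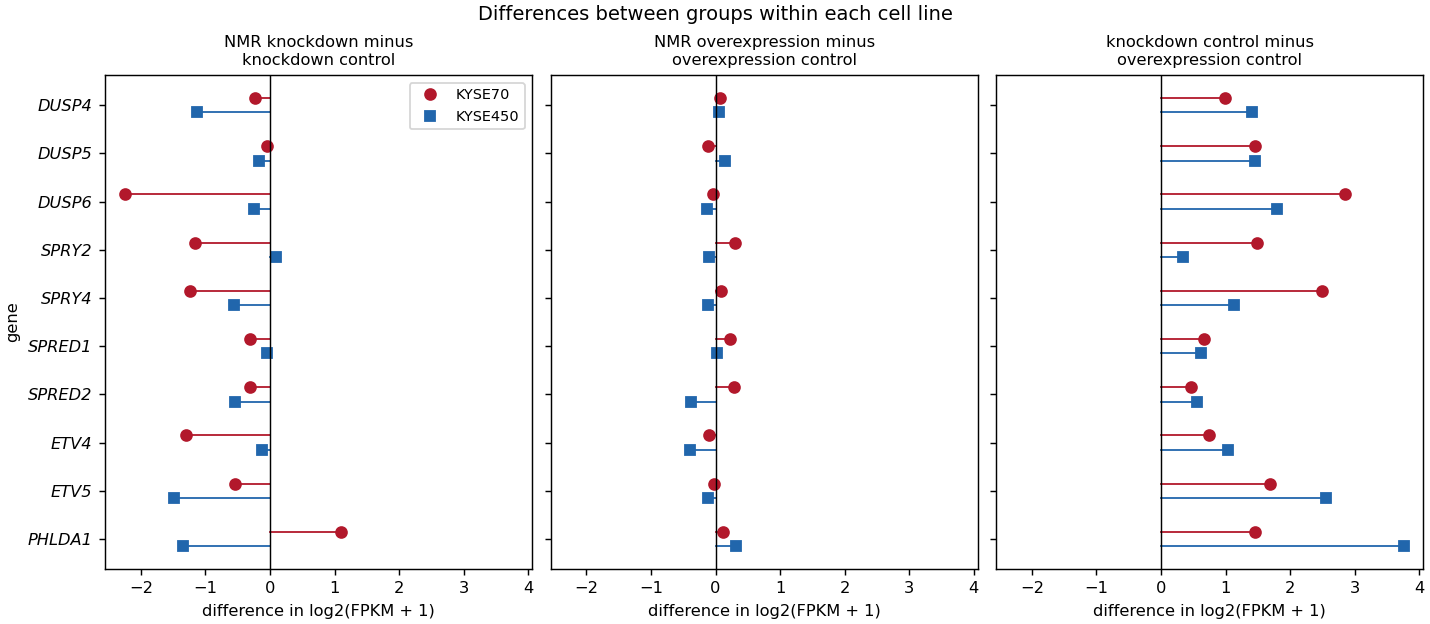
Difference in log2(FPKM + 1) of each gene within each line, for NMR knockdown minus knockdown control, NMR overexpression minus overexpression control, and knockdown control minus overexpression control. The control difference is above 0 for all 10 genes in both lines, the knockdown difference runs from -2.25 (DUSP6, KYSE70) to 1.09 (PHLDA1, KYSE70), and the overexpression difference stays between -0.40 and 0.32.

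Over both lines together, limma called 0 of the 10 genes and 0.0% of all genes for knockdown. At an unadjusted p under 0.05 it listed 5 of the 10 (DUSP4, DUSP6, SPRY4, ETV4 and ETV5) and 1794 genes in all (12.5%), and the voom fit of recovered reads called 4 genes, none of the 10. The fitted difference was -1.25 for DUSP6 (SE 0.41, limma adjusted p = 0.353), -1.02 for ETV5 (SE 0.22, limma adjusted p = 0.274) and -0.89 for SPRY4 (SE 0.21, limma adjusted p = 0.281). ETV4 stood at -0.71 (SE 0.27), DUSP4 at -0.68 (SE 0.24), SPRY2 at -0.53 (SE 0.30), SPRED2 at -0.43 (SE 0.19), SPRED1 at -0.18, PHLDA1 at -0.13 (SE 0.49) and DUSP5 at -0.11. With the KYSE70 pair alone, the difference was -2.25 for DUSP6, -1.294 for ETV4, -1.232 for SPRY4 and -1.157 for SPRY2. For ETV5 it was -0.545 and for PHLDA1 1.095 in that line. The KYSE450 pair alone gave -1.127 for DUSP4, -1.493 for ETV5 and -1.349 for PHLDA1. A single pair has no spread of its own, so no call is read from it. The KYSE70 knockdown library has the high mitochondrial share given above, which was not tested as a part of these values. Correction for GC content and length moved its difference from the knockdown control to -0.71 for SPRED1, against -0.31 before, and to -0.99 for ETV4, against -1.29 before; DUSP6 stood at -2.33, against -2.25.

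**Figure D4:**
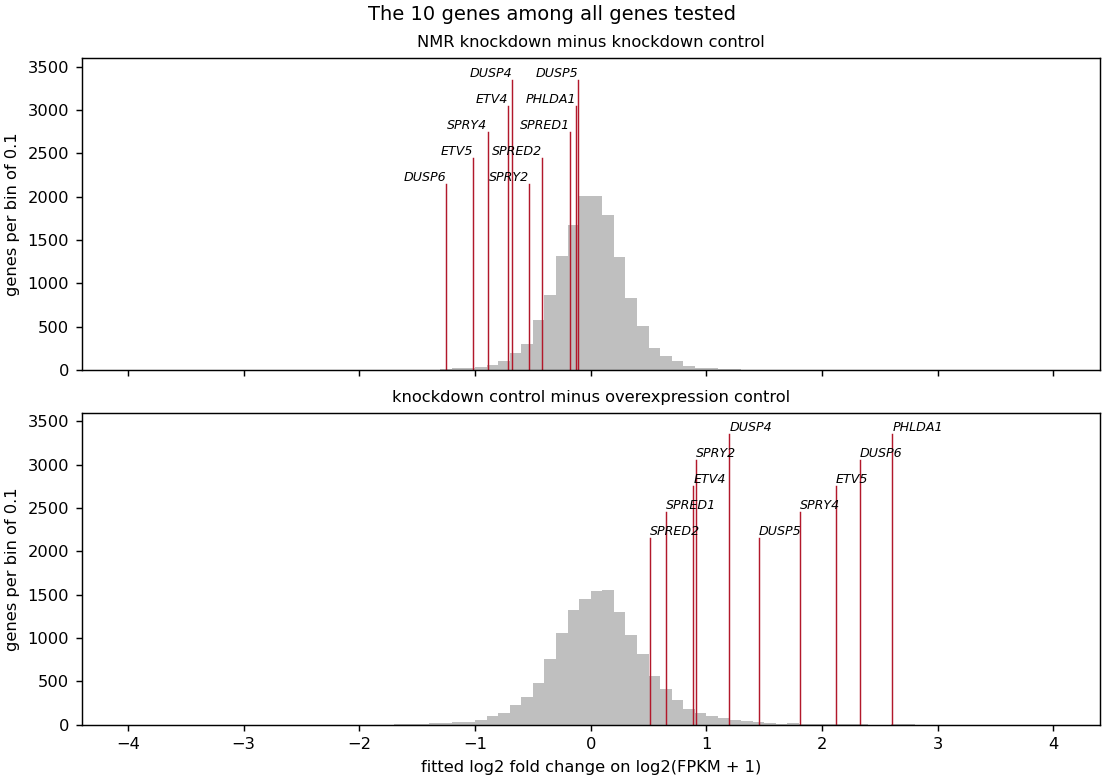
Fitted log2 fold changes of all 14311 tested genes (grey, genes per bin of 0.1) with the 10 genes marked by red lines, for NMR knockdown minus knockdown control (top) and knockdown control minus overexpression control (bottom). All 10 genes lie below 0 in the top panel (median of all genes -0.002) and above 0.5 in the bottom panel (median of all genes 0.072). The fitted values average the lines, and SPRY2 and PHLDA1 had opposite signs in the lines with knockdown.

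Set beside the overexpression control, to which the knockdown libraries have no matched delivery, the knockdown libraries were higher for 9 of the 10 genes in both lines, as were 35.5% of all genes. PHLDA1 was 6.18-fold higher in KYSE70 and 6.19-fold in KYSE450, ETV5 2.22-fold and 2.29-fold, and DUSP4 2.26-fold and 2.26-fold. DUSP5 was 2.8-fold and 3.69-fold higher, SPRY4 2.92-fold and 2.57-fold, and DUSP6 1.75-fold and 3.52-fold. ETV4 was the exception, at 0.673-fold in KYSE70 and 1.96-fold in KYSE450. PHLDA1, ETV5 and DUSP4 thus had nearly the same fold in both lines here, while against the knockdown control their folds differed between the lines. The knockdown control was the highest of the 4 libraries of its line, in both lines, for 8 of the 10 genes and 10.5% of all genes.

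NMR overexpression moved none of the 10 genes past the threshold against its control. limma called 0 of them and 0.0% of all genes, with 0 of the 10 and 148 genes in all (1.03%) at an unadjusted p under 0.05, and voom called 0. The fitted differences ran from -0.25 for ETV4 (SE 0.27) to 0.22 for PHLDA1 (SE 0.49), each with a limma adjusted p of 1. Higher in both lines were DUSP4, SPRED1 and PHLDA1 (3 of the 10 and 23.0% of all genes), and lower in both were DUSP6, ETV4 and ETV5 (3 of the 10 and 27.6%). The other 4 had opposite signs in the lines, as did 48.7% of all genes. In single lines the folds farthest from 1 were 0.738 for ETV4 in KYSE450 (95% counting interval 0.64 to 0.851), 0.758 for SPRY4 in KYSE450 (0.383 to 1.48), 0.759 for SPRED2 in KYSE450 (0.704 to 0.819) and 1.31 for SPRY2 in KYSE70 (1.09 to 1.57).

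Genes with a pattern like these were looked for among all other tested genes, by the root mean square difference in log2(FPKM + 1), centred within each line, over the 8 libraries. Nearest to the mean of the 10 genes was GNG4, a G protein gamma subunit, at 0.049, followed by AKNA at 0.115 and SYCE3 at 0.119. GNG4 had 4.31 FPKM in KYSE70 knockdown cells against 6.53 FPKM in knockdown control cells, and 2.14 FPKM in overexpression cells against 2.06 FPKM in overexpression control cells. In KYSE450 GNG4 had 14.4 FPKM in knockdown cells against 21.6 FPKM in knockdown control cells, and 7.18 FPKM in overexpression cells against 7.82 FPKM in overexpression control cells. It thus shared the order of the libraries, with the opposite order of the lines. Single members were nearest to GPT2 (DUSP4, 0.072), MLF1 (DUSP5, 0.089), TLE6 (SPRY4, 0.173), RP11-44F14.2 (SPRY2, 0.105), REL (SPRED1, 0.061), NCR3LG1 (SPRED2, 0.092), KCNG1 (ETV4, 0.097), FGF21 (ETV5, 0.15), AC019117.2 (DUSP6, 0.31) and TRIB3 (PHLDA1, 0.312). This measure grows with a gene's own variation, which was widest for PHLDA1 and DUSP6 (root mean square 1.32 and 1.04) and narrowest for SPRED2 (0.27).

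The rest of the pathway was described from 4 lists. Of 12 other ERK outputs, 11 were higher in knockdown control than in overexpression control cells by the fitted value and 10 in both lines, with a median of 1.02 and 0 called by limma. IER3, an immediate early gene, had 239 FPKM in KYSE70 knockdown control against 71.6 FPKM in overexpression control cells, and 271 against 34.3 FPKM in KYSE450 (2.34, limma adjusted p = 0.111). LIF, a cytokine of the interleukin-6 family, had 10.5 against 2.4 FPKM in KYSE70 and 4.13 against 0.453 FPKM in KYSE450 (1.79, limma adjusted p = 0.107). The 19 genes of the cascade itself had a median of 0.15, with 10 higher in both lines, and the smallest p was that of MAP2K1, which codes for the kinase MEK1 (0.44, limma adjusted p = 0.292).

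Of the 10 tested family relatives 6 were higher in both control comparisons, with a median of 0.35, SPRY1 standing at 1.25 (limma adjusted p = 0.138). Of the 11 tested receptors and ligands 3 were higher and 3 lower in both lines, with a median of 0.32. The lower ones were the receptors FGFR2 (-1.64), ERBB2 (-0.74) and EGFR (-0.44). Of the higher ones HBEGF, a ligand of the EGF receptor, stood at 2.65 (limma adjusted p = 0.129). It had 4.58 FPKM in KYSE70 knockdown control against 0.835 FPKM in overexpression control cells, and 23.4 against 0.889 FPKM in KYSE450. Over all genes, 37.1% were higher and 24.3% lower in both lines.

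With knockdown, limma called 0 genes of any of the 4 lists. LIF stood at -1.13 (limma adjusted p = 0.268), the EGF receptor ligands HBEGF at -1.49 (limma adjusted p = 0.199) and AREG at -1.28 (limma adjusted p = 0.199), and EGR1, an immediate early transcription factor, at 1.09 (limma adjusted p = 0.268). The list medians were 0.01 for the other outputs, 0.02 for the cascade, -0.02 for the relatives and 0.03 for the receptors and ligands, in the same order, 3 of 12, 3 of 19, 2 of 10 and 3 of 11 genes were higher in both lines (27.1% of all genes), and 6, 8, 3 and 3 were lower in both (25.9%). EGR1 had 36.7 FPKM in KYSE70 knockdown against 12.2 FPKM in knockdown control cells, and 100 against 62.5 FPKM in KYSE450. Its order was thus opposite to that of most of the 10 genes. With overexpression 0 genes of the lists were called, and the medians lay between -0.01 and 0.16.

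Between the lines, limma called 5 cascade genes higher and 2 lower in KYSE70, among them the adaptor GAB1 at 1.54, with MAPK3, which codes for ERK1, at -1.48. Of the other outputs 4 were higher and 2 lower, led by the receptor EPHA2 at 3.17, with EGR1 at -1.58. Of the relatives 4 were higher and 2 lower, and of the receptors and ligands 2 higher and 4 lower, with FGFR1 at 2.26, ERBB3 at -3.64 and EGFR at -1.96. Each list thus had called genes in both directions, while the 7 called feedback and output genes were all higher in KYSE70. Among the members without a call, DUSP6 (-0.38) and SPRED2 (-0.07) stood below 0 and PHLDA1 (0.77) above. Members and lists were chosen with earlier results of these data known, so no conclusion is drawn from this contrast.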

How the data were processed

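The deposited files hold 1 value per gene and library with no stated unit. The values behave as FPKM made by the authors: whole reads (tolerance 0.02) could be recovered for all 14311 tested genes and made up 99.886% to 99.909% of the library totals. TopHat2 2.0.9, HTSeq 0.6.1 and hg19 are named in the submitters' processing notes, without roles; the sources used here give no annotation, filters or strand setting. Intervals cover counting error only, with 1 library of each line and group. They may be too narrow even for that, since reads counted without molecular identifiers need not be separate molecules.

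Gene names come from the files, and coordinates and lengths from GENCODE release 29, in which 45342 of the 48162 identifiers occur. After a filter at a mean of 1 FPKM, limma 3.58.1 with a trend (R 4.3.3) was run on log2(FPKM + 1), a scale on which a fold understates the change of low genes. Overexpression, knockdown and the interaction were fitted with 1 block for each pair of libraries sharing line and arm, 4 in all (2 residual degrees of freedom), and cell line and the controls with an additive model of group and line (3 residual degrees of freedom). Replicate numbers pair the libraries, since a number stands for 1 cell line. The p-values are two-sided, adjusted by Benjamini-Hochberg over all genes tested, and measure the spread between these libraries, which the labels do not say are separate cultures. With 1 library of each line and group, that spread in these fits is how far the lines disagree over the group differences, not that of repeats. In the cell line comparison the 4 libraries of a line are from 4 different groups. The fits were tested on simulated data. All 10 genes are named, and from each list up to 3 called genes or, where 0 passed, up to 2 by p; some that this takes are left out of the text. The members and lists were chosen with earlier results of these data known. Alternatives were another pseudocount, filter, scaling or block, fits to fewer libraries, correction for GC content and length, voom on recovered reads, and fits without each single library. The contrast of both libraries of each arm and the values of knockdown beside the overexpression control were added after the data were seen.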

Additional observations from a re-analysis of the deposited data

Results flagged for a closer look

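For 4 of the 10 genes the overexpression difference in log2(FPKM + 1) had opposite signs in the 2 lines, and for 2 the knockdown difference did, as happens for 48.7% and 46.4% of all genes. With 1 pair of libraries a line, the difference between the lines was not tested. For knockdown minus knockdown control, PHLDA1 stood at 1.095 in KYSE70 and -1.349 in KYSE450, and SPRY2 at -1.157 in KYSE70 and 0.098 in KYSE450. For overexpression minus overexpression control, SPRED2 stood at 0.279 in KYSE70 and -0.387 in KYSE450, SPRY2 at 0.309 and -0.1, DUSP5 at -0.109 and 0.149, and SPRY4 at 0.085 and -0.113.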

How the results depend on the processing

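The counts of called genes moved more than the values of the 10 genes. For overexpression the count was 12 with only the 4 libraries of that manipulation in the fit, and 0 to 12 when single libraries were left out. For knockdown it was 3 with a pseudocount of 0.1, 4 with voom, 37 with the 4 libraries of the manipulation, and 36 to 4833 with single libraries left out. Without either library of the KYSE450 pair, 6 of the 10 genes were called, and without either of the KYSE70 pair, 3; the remaining pair is then assumed to vary like the overexpression pairs. For the controls the count was 1457 with both libraries of each arm and 0 to 11 with single libraries left out, ETV5 passing without either overexpression library. For the interaction it was 0 without the filter, 511 with a minimum of 5 FPKM, 541 with quantile normalization, 1753 with GC and length trends removed, and 330 to 6101 with single libraries left out. The cell line count was 6077 to 7651 with single libraries left out, and 4 to 7 of the 10 genes were called under all alternatives, the 4 where only 7 passed the stricter filter. Without the block of paired lines, limma called 0 genes for knockdown and 0 for overexpression, as with it.

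In the 4 comparisons other than the interaction, the sign of the following values turned: DUSP5 under overexpression (-0.034 with voom, -0.109 to 0.149 with single libraries left out), SPRY4 under overexpression (0.002 with voom, -0.113 to 0.085), SPRED2 and SPRY2 under overexpression (-0.387 to 0.279 and -0.1 to 0.309), SPRY2 and PHLDA1 under knockdown (-1.157 to 0.098 and -1.349 to 1.095), and SPRED2 between the lines (0.031 with GC and length trends removed, -0.229 to 0.023). The interaction value turned under at least 1 alternative for 7 of the 10 genes, with ranges over all alternatives of -1.14 to 0.49 for DUSP4, -0.27 to 0.31 for DUSP5, -0.995 to 1.01 for DUSP6, -0.31 to 0.94 for SPRY2, -0.64 to 0.02 for SPRED2, -0.91 to 0.04 for ETV5 and -2.21 to 0.24 for PHLDA1. The cause was not tested. Depth limits the values of SPRY4 and DUSP4 in the KYSE450 plasmid libraries most, where as few as 18 and 23 reads stand behind a value.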
